A study of Mus musculus with 6 samples.

Results

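The Gadd45 and growth arrest genes examined here were Gadd45a, Gadd45b, Gadd45g, Cdkn1a, Mdm2, Btg1, Btg2, Ier3, Ccnd1 and Myc. All 10 genes were measured in liver, by 18 probe sets of the 22626 tested and as 10 of the 12393 genes named by a probe set with a single gene symbol. A probe set is a group of short oligonucleotides on the array that reads 1 transcript or a few related ones. Probe sets were taken by symbol, but the genes themselves were chosen by measured differences of this comparison, the low Gadd45b intensity in DUhTP mice among them. The values below therefore describe the group, and the adjusted p-values, which come from the whole array, are no independent evidence about it.

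DUhTP mice come from a line bred over many generations for high treadmill performance, and DUC mice from the unselected control line. Both lines are non-inbred and go back to a cross of the outbred stocks NMRI orig., Han:NMRI, CFW and CF1 with the inbred lines CBA/Bln, AB/Bln, C57BL/Bln and XVII/Bln. Livers were taken at 70 days of age from males without training, and no transgene or treatment was used. Each line had 3 Affymetrix Mouse Genome 430A 2.0 arrays, so the number of arrays limits the precision. The study's methods describe pools of mice and the labels a single mouse, so the p-values measure only the spread between these arrays. Values are PLIER intensities, a linear probe set summary in arbitrary units, and a log2 fold change is the mean log2 intensity in DUhTP minus that in DUC. "Called" means an adjusted p under 0.05 in limma, with Benjamini-Hochberg adjustment over all probe sets, and "without overlap" means that all 3 arrays of one line lay on the same side of all 3 of the other.

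Median intensity ranged from 53.1 to 57.0 over the 6 arrays, and the lowest correlation of log2 intensity was 0.959 within DUhTP, 0.974 within DUC and 0.950 between the lines. Hepatocyte markers such as albumin were bright on every array and fitted the liver label, with a summed intensity of 79683 to 82166 in DUhTP and 83882 to 85972 in DUC. Summed intensity of the 9 exocrine pancreas markers measured was 993 to 4152 in DUhTP and 4679 to 9077 in DUC, with a median log2 difference of -2.55. The 12 Kupffer cell and leukocyte markers summed to 3672 to 4569 in DUhTP and 2636 to 3565 in DUC, and the 8 endothelial markers to 2675 to 2998 and 2295 to 2509. Stellate cell and cholangiocyte marker sums overlapped between the lines. No marker was listed at 0. These marker differences ran alongside every line difference below, and their part in it was not tested. In bulk liver, fewer cells of a type and less RNA per cell cannot be told apart.

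Gadd45 proteins are small acidic stress proteins, induced by DNA damage, growth factor withdrawal and metabolic stress, which bind PCNA, p21 and the kinase MAP3K4 upstream of p38 and JNK. Cdkn1a encodes p21, an inhibitor of cyclin-dependent kinases and a classical target of the tumour suppressor p53, and Mdm2 encodes the ubiquitin ligase that is both a p53 target and its negative regulator. Btg1 and Btg2 are antiproliferative adaptors of mRNA deadenylation, Ier3 is an immediate early gene linked to survival, and Ccnd1 (cyclin D1) and Myc drive entry into the cell cycle. In liver, members of this group respond to regeneration, fasting and the hepatic circadian and hormonal rhythms.

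The 250 bases before the transcript start are shown for the 3 Gadd45 genes and for Cdkn1a, because Gadd45b, Gadd45g and Cdkn1a had the largest line differences in the group while Gadd45a was called on neither scale used below. Sequences are from RefSeq on build GRCm38.p6, written 5′ to 3′ along the gene, and the array data hold no measurement at these regions. Capitals mark an E-box, CACGTG, in Gadd45b and Gadd45g, and every match to the p53 half-site in Gadd45a and Cdkn1a.
Gadd45a, chr6:67037408-67037657, - strand: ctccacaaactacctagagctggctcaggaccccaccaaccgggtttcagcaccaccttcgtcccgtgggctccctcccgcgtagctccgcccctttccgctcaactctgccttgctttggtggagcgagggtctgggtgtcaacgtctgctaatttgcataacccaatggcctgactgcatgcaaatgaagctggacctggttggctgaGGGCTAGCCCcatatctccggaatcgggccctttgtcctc
Gadd45b, chr10:80929841-80930090, + strand: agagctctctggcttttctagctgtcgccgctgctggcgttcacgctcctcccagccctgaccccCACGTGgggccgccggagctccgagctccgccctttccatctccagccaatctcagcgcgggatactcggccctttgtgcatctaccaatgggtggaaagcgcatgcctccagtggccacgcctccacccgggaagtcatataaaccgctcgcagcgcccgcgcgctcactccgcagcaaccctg
Gadd45g, chr13:51846425-51846674, + strand: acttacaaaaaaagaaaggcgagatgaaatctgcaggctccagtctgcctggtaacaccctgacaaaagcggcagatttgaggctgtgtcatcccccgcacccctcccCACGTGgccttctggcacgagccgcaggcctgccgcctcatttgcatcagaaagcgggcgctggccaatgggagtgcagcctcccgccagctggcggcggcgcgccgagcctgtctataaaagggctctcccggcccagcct
Cdkn1a, chr17:29090729-29090978, + strand: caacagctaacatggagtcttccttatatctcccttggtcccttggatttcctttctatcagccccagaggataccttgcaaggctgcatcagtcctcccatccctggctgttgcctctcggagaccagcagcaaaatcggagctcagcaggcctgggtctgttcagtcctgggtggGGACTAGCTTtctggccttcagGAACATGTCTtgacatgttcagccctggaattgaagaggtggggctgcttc
RefSeq windows were found for 8 of the 10 genes, 9 windows in all, since Cdkn1a has a second start whose window is not shown. The E-box lay 185 bases before the start of Gadd45b and 142 bases before that of Gadd45g. It was present in 2 of the 9 windows and in 6.02% of all 32841 windows of this length. The p53 half-site was present in 3 of the 9 windows, those of Gadd45a and Mdm2 and the Cdkn1a window shown, and in 7.13% of all windows. Matches lay 40 bases before the start of Gadd45a, and 73 and 51 bases before that of Cdkn1a. The Cdkn1a window that is not shown had no p53 half-site. The cAMP response element TGACGTCA was present only in the Btg2 window, against 1.55% of all windows. The glucocorticoid receptor half-site AGAACA, also read on the opposite strand, was in 0 of the 9 windows and in 16.1% of all windows. A match describes letters and not a bound site.

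Gadd45b and no other gene of the group passed the threshold. Gadd45b fell on 2 of its 3 probe sets, and these were the called ones among the 18, against 2.41% of all probe sets at any fold change and 1.45% at a fold change over 2. Counted by gene, 1 of the 10 was called lower and 0 higher, against 1.40% of all genes lower, 1.92% higher and 3.32% in either direction. Without overlap, 9 of the 18 probe sets were lower in DUhTP, against 15.8% of all probe sets, and 3 were higher, against 13.6%. Since the genes were chosen on this comparison, nothing is read from these shares. On the brightest probe set of each gene, 6 genes had a negative and 4 a positive log2 fold change, with a median of -0.60, against 0.0011 over all genes. The plot of intensity on every array shows the probe sets in order of role.

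**Figure D1:**
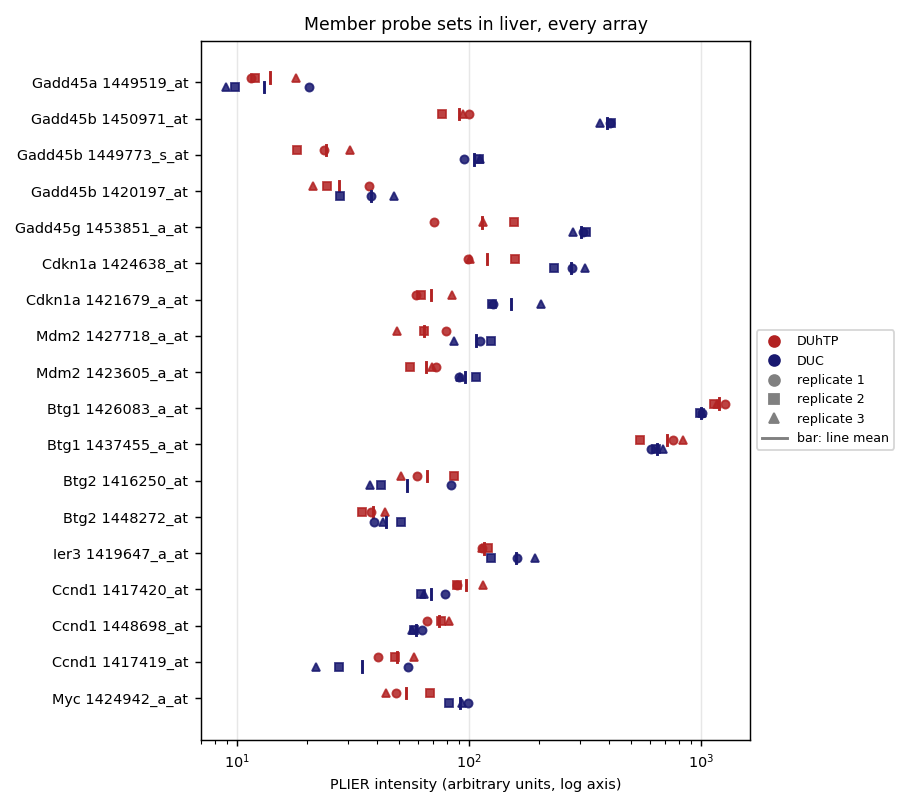
PLIER intensity (arbitrary units, log axis) of the 18 probe sets of the 10 genes on each of the 6 liver arrays, with DUhTP in red, DUC in dark blue, marker shape for the replicate and a bar at the line mean. Both lines are far apart for Gadd45b 1450971_at and 1449773_s_at, Gadd45g and both Cdkn1a probe sets. They overlap for Gadd45a, both Btg2 probe sets, Gadd45b 1420197_at, Btg1 1437455_a_at and Ccnd1 1417419_at. Levels of different probe sets cannot be compared with each other.

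Among the Gadd45 genes, Gadd45b differed most. On probe set 1450971_at its intensity was 99.8, 76.2 and 93.6 in DUhTP and 403, 408 and 366 in DUC. The lowest DUC array was thus far above the highest DUhTP array. The means of 89.9 ± 12.3 and 392 ± 23.3 (SD, n = 3 per line) gave a log2 fold change of -2.13 (SE 0.14, limma adjusted p = 0.00708), or 4.39 times more in DUC. On probe set 1449773_s_at, a kind that can match more than 1 transcript, intensity was 23.7, 18.1 and 30.5 in DUhTP and 94.5, 110 and 111 in DUC. The difference was of much the same size, with a log2 fold change of -2.16 (SE 0.21, limma adjusted p = 0.0166) and means of 24.1 ± 6.22 and 105 ± 9.22 (SD, n = 3). The third probe set, 1420197_at, read 36.9, 24.2 and 21.2 in DUhTP and 37.8, 27.6 and 47.4 in DUC. Here the lines overlapped, and the log2 fold change was -0.46 with a 95% interval of -1.17 to 0.25, so the probe sets of Gadd45b disagreed in size though not in sign. With 1 array left out the fold changes stayed of this size, at -2.21 to -2.02 for 1450971_at and -2.34 to -1.96 for 1449773_s_at, while some calls were lost. Without DUC replicate 2 the adjusted p of 1450971_at was 0.0565, in a fit that called 1 probe set of the whole array in place of 546. For 1449773_s_at it was 0.0591 without DUhTP replicate 1 and 0.0640, 0.0907 and 0.0934 without DUC replicates 1, 2 and 3, fits that called 121, 59, 1 and 30 probe sets in all.

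Gadd45g, the family member best known for its induction by cytokines, was read by 1 probe set at 70.7, 155 and 114 in DUhTP and at 310, 318 and 281 in DUC. All DUhTP arrays lay below all DUC arrays, but the DUhTP arrays were more than 2 times apart. Means were 113 ± 42.2 and 303 ± 19.6 (SD, n = 3), and the log2 fold change of -1.49 (SE 0.29) did not pass the threshold (limma adjusted p = 0.0643). Gadd45a, the p53-responsive member, read 11.5, 11.9 and 17.9 in DUhTP and 20.4, 9.73 and 8.93 in DUC. This is a dim signal, above only 17.6% of all probe sets, and the lines overlapped. Its log2 fold change of 0.15 had a 95% interval of -0.75 to 1.06, so a change in either direction by up to about that size was not detectable here, and it turned negative, by at most 0.065, without DUhTP replicate 3 or DUC replicate 2 or 3.

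Cdkn1a on probe set 1424638_at read 98.3, 158 and 101 in DUhTP and 276, 233 and 314 in DUC. The lines did not overlap, with means of 119 ± 33.7 and 274 ± 40.7 (SD, n = 3), and DUC was 2.34 times higher. The log2 fold change was -1.23 (SE 0.23, limma adjusted p = 0.0582). On 1421679_a_at, Cdkn1a read 59.0, 62.2 and 84.2 in DUhTP and 126, 126 and 204 in DUC. Again no array overlapped, and the log2 fold change of -1.13 (SE 0.25, limma adjusted p = 0.0819) was close to that of the other probe set. Mdm2 on 1427718_a_at read 79.7, 63.5 and 48.8 in DUhTP and 112, 125 and 85.7 in DUC. On 1423605_a_at it read 71.5, 55.5 and 69.0 in DUhTP and 90.3, 107 and 91.5 in DUC. Both Mdm2 probe sets were lower in DUhTP without overlap, with log2 fold changes of -0.76 (SE 0.23) and -0.56 (SE 0.15) that did not pass (limma adjusted p = 0.152 and 0.115).

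Btg1 was the brightest read of the group and lay on the other side. On 1426083_a_at it read 1270, 1137 and 1170 in DUhTP and 1010, 992 and 1004 in DUC. The DUhTP arrays were all higher, by a log2 fold change of 0.25 (SE 0.10, limma adjusted p = 0.240). On its second probe set, 1437455_a_at, the lines overlapped at 544 to 833 in DUhTP and 607 to 686 in DUC. Btg2 overlapped on both probe sets, and its log2 fold changes were 0.33 on 1416250_at (95% interval -0.56 to 1.23) and -0.19 on 1448272_at (95% interval -0.56 to 0.19). The probe sets of Btg2 thus differed in sign, and neither sign was distinguishable from 0. Ier3 read 114, 120 and 113 in DUhTP and 161, 124 and 191 in DUC. The lines did not overlap, although DUC replicate 2 was close to the DUhTP arrays, and the log2 fold change was -0.43 (SE 0.18, limma adjusted p = 0.239).

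The growth-promoting genes Ccnd1 and Myc differed in sign. Myc read 48.3, 67.9 and 43.6 in DUhTP and 98.3, 82.1 and 93.0 in DUC. All DUhTP arrays were lower, with means of 53.2 ± 12.9 and 91.1 ± 8.28 (SD, n = 3) and a log2 fold change of -0.80 (SE 0.20, limma adjusted p = 0.0994). Ccnd1 on 1417420_at read 88.2, 88.5 and 115 in DUhTP and 78.9, 62.0 and 63.7 in DUC. On 1448698_at it read 65.5, 75.6 and 81.5 in DUhTP and 62.6, 57.5 and 56.7 in DUC. Both were higher in DUhTP without overlap, with log2 fold changes of 0.51 and 0.33 that did not pass (limma adjusted p = 0.167 and 0.218). On the dimmest Ccnd1 probe set, 1417419_at, DUC replicate 1 at 54.5 lay within the DUhTP range of 40.6 to 57.6, and the log2 fold change was 0.59 (95% interval -0.30 to 1.47).

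PLIER values of dim probe sets vary widely on a log scale, and adding 16 to every intensity before the logarithm shrinks that spread and also the fold change. On that scale 8 of the 18 probe sets were called, all lower in DUhTP, against 8.62% of all probe sets. They belonged to Gadd45b, Gadd45g, Cdkn1a, Mdm2 and Myc, 5 of the 10 genes, against 11.3% of all genes called in either direction. Gadd45g then had a log2 fold change of -1.35 (limma adjusted p = 0.00439), Cdkn1a of -1.12 on 1424638_at (0.00489), and Myc of -0.64 (0.0253). Mdm2 passed more narrowly, with adjusted p of 0.0461 and 0.0483, and no probe set of Gadd45a, Btg1, Btg2, Ier3 or Ccnd1 passed.

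**Figure D2:**
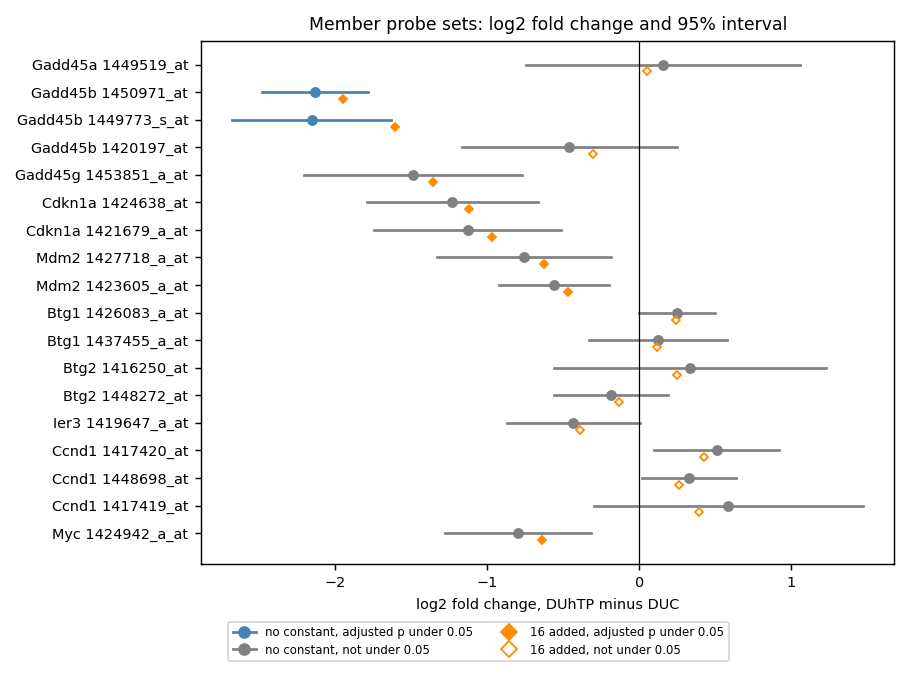
Log2 fold change, DUhTP minus DUC, of the 18 probe sets; circles and lines give the value without a constant and its unadjusted 95% interval (blue where the adjusted p is under 0.05), and diamonds the value with 16 added (filled where it is under 0.05). Both blue circles are Gadd45b, and 8 diamonds are filled, all on the negative side.

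Leaving out 1 array at a time separated these members further. With 16 added, both larger Gadd45b differences, Gadd45g and both Cdkn1a probe sets stayed under 0.05 in 6 of 6 fits, with a highest adjusted p of 0.0420. Myc and Mdm2 1427718_a_at were above 0.05 in 5 of these 6 fits, and Mdm2 1423605_a_at in 6 of 6. Combining the constant with a left-out array was chosen after seeing the data. Without a constant, Gadd45g and Cdkn1a stayed above 0.05 in 6 of 6 fits. Some other settings without a constant, given below with the processing, called both genes.

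**Figure D3:**
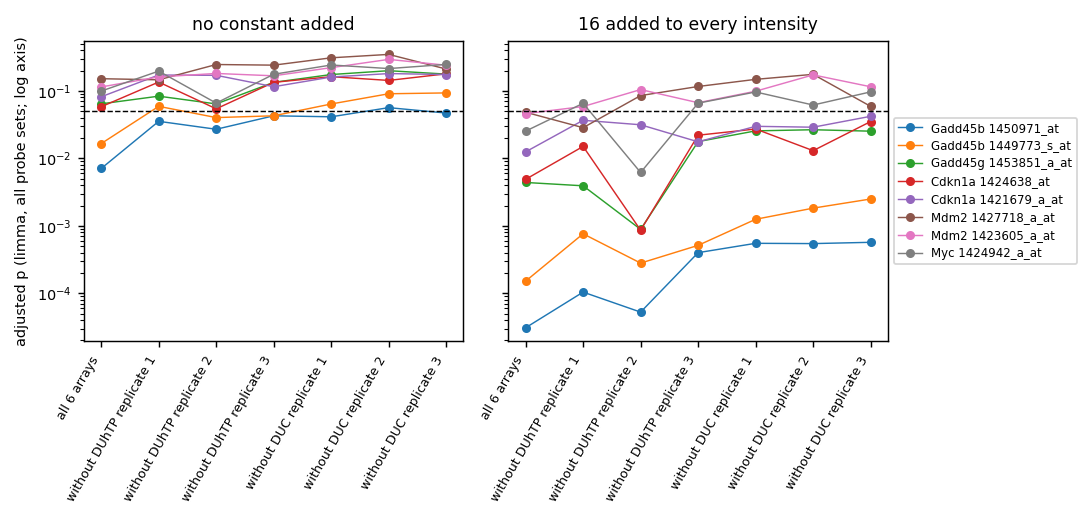
Adjusted p (limma, over all probe sets, log axis) of 8 probe sets with all 6 arrays and with each array left out, without a constant on the left and with 16 added on the right; the dashed line is 0.05. On the left Gadd45b alone lies under the line, and not in every fit, while on the right Gadd45b, Gadd45g and Cdkn1a lie under it in every fit.

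Members also differed in which arrays were low. DUhTP replicate 2 had the lowest Gadd45b reading of its line on 1450971_at but the highest for Gadd45g, Cdkn1a 1424638_at, Btg2 1416250_at and Myc. This depended on the probe set. On Cdkn1a 1421679_a_at and Btg2 1448272_at, DUhTP replicate 3 was the highest, at 84.2 and 43.1. Likeness of pattern was measured as the root mean square difference from Gadd45b over the 6 arrays, in log2 intensity relative to the DUC mean, where 0 is an identical pattern. The measure includes the line difference, so a near gene is mainly one with a fold change of similar size. As the members were chosen on this comparison, their ranks are a description only. Gadd45g, at 0.634, ranked 62 of the other 12392 genes, Cdkn1a, at 0.744, ranked 115, and Myc, at 0.997, ranked 407. Mdm2 and Ier3 ranked 419 and 1505, and Gadd45a, Btg1, Btg2 and Ccnd1 ranked 8903 to 11078. Of the 7072 genes brighter than the median, the 5 nearest to Gadd45b were Cdk5rap1 at 0.126, Naaa at 0.224, Got1 at 0.246, St3gal5 at 0.255 and Retreg1 at 0.256. Cdk5rap1, a mitochondrial tRNA-modifying enzyme, read 70.2 to 90.2 in DUhTP and 293 to 368 in DUC, and Got1, the cytosolic aspartate aminotransferase, read 1254 to 1539 in DUhTP and 4660 to 5900 in DUC.

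Other genes of the same pathways were taken from 12 lists that hold no member of the group, and a gene counted as called where any of its probe sets was. Counted so, 3.32% of all genes were called in either direction, and 11.3% with 16 added. Among 17 other p53 target genes measured, 0 were called and the median log2 fold change was -0.11. On the brightest probe set 13 of them were negative and 4 positive. Without overlap 5 were lower and 1 higher, against 15.8% and 13.6% of all probe sets. With 16 added, 3 of these genes passed lower, Plk3, Trp53inp1 on 1416926_at but not 1416927_at, and Sesn1 on 1433711_s_at alone. On these probe sets the log2 fold changes without the constant were -1.04, -0.79 and -0.63. The bright Ei24 and Perp, at -0.24 and -0.11, did not pass, though Ei24 was lower in DUhTP without overlap. Of 10 p53 and DNA damage regulators 0 were called on either scale, with Rchy1 at 0.04 and Usp7 at -0.21. Of 9 Gadd45 partners and stress kinases also 0 were called, with the p38 kinase gene Mapk14 at -0.32 and Pcna at 0.01. The 6 other inhibitors of cyclin-dependent kinases had 0 calls and a median of 0.18, with Cdkn2c at 0.21 and Cdkn2d at 0.24. Without overlap on the brightest probe set, 2 regulators were lower and 0 higher. For the partners and stress kinases these counts were 3 and 1, and for the inhibitors 0 and 2.

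Among 9 other BTG/TOB genes and subunits of the CCR4-NOT deadenylase, Cnot6l fell on 1 of its 4 probe sets, 1425481_at (log2 fold change -0.78, limma adjusted p = 0.0383). Tob1 and Tob2 passed lower with 16 added, and without it read -0.65 and -1.27, whereas Cnot8 read 0.41. On the brightest probe set 4 of the 9 genes were lower without overlap and 1 was higher. Of 23 immediate early genes, Egr2 was called higher on 1 very dim probe set, at 5.63 ± 0.134 in DUhTP and 1.26 ± 0.523 in DUC (SD, n = 3), and did not pass with 16 added. On that scale Fosl1 and Jund of this list passed lower (limma adjusted p = 0.0263 and 0.0438). Jund and Dusp1, the brightest genes of the list, read -0.56 and 0.14 without the constant. Of 16 genes of the NF-kB list, the chemokine gene Cxcl1 rose, with a log2 fold change of 1.95 (limma adjusted p = 0.0455) and means of 113 ± 31.5 in DUhTP and 29.5 ± 10.3 in DUC, while Sod2 and Nfkbia read 0.34 and -0.29. Cxcl1 also passed with 16 added, as did Nfkbiz, which was lower.

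Cell cycle genes gave few calls, but so did all genes, at 3.32% in either direction, and nothing is read from the low counts. Of 14 genes of the G1 cyclins and the Rb pathway 0 were called, the median was -0.20, and Rbl2 at -0.64 passed lower with 16 added. Cdk4, the kinase partner of cyclin D1, read -0.34. Of 23 S phase and mitosis genes, the DNA replication gene Mcm6 fell on 1438852_x_at, a dim probe set (1.96 ± 0.847 in DUhTP and 11.0 ± 1.74 in DUC, limma adjusted p = 0.0309), while Mcm7 and Pcna read 0.04 and 0.01. With 16 added Mcm6 passed again and Mcm3 passed higher on 1 of its 5 probe sets. The 9 Myc partners and antagonists had 0 calls and a median of 0.07, with Mnt at 0.01 and Mxd4 at 0.07. The 8 Myc target genes also had 0 calls, but all 8 had a negative log2 fold change on their brightest probe set, with a median of -0.45, and 6 were lower without overlap, against 15.8% of all probe sets. With 16 added 4 of them passed lower, the nucleolar genes Ncl, Npm1, Nop58 and Nop56, against 11.3% of all genes called in either direction.

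Glucocorticoid-induced genes had the lowest median of the 12 lists. Of 9 genes measured, 3 fell and 0 rose, against 1.40% of all genes called lower and 1.92% higher. The median was -1.04, and 7 were lower without overlap, against 15.8% of all probe sets. Like the other lists, this one was chosen with earlier results of these data known, so its counts are a description. Fkbp5, a glucocorticoid receptor co-chaperone, fell from 828 ± 188 in DUC to 277 ± 13.7 in DUhTP, a log2 fold change of -1.55 (SE 0.19, limma adjusted p = 0.0240). Klf9, a transcription factor gene, fell from 1043 ± 142 to 475 ± 62.1, a log2 fold change of -1.13 (limma adjusted p = 0.0335). Tat, the hepatic tyrosine aminotransferase, fell from 7110 ± 654 to 3873 ± 382, a log2 fold change of -0.88 (limma adjusted p = 0.0370). With 16 added Zbtb16, Cebpd and Per1 passed as well, making 6. On the brightest probe set 8 of the 9 genes had a negative log2 fold change. Sgk1, called on neither scale, was among these at -0.72, while Tsc22d3, known as GILZ, read 0.34 with overlapping lines. Without any 1 of the arrays at most 1 of the 9 genes was called, and with 16 added 4 to 6 were.

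**Figure D4:**
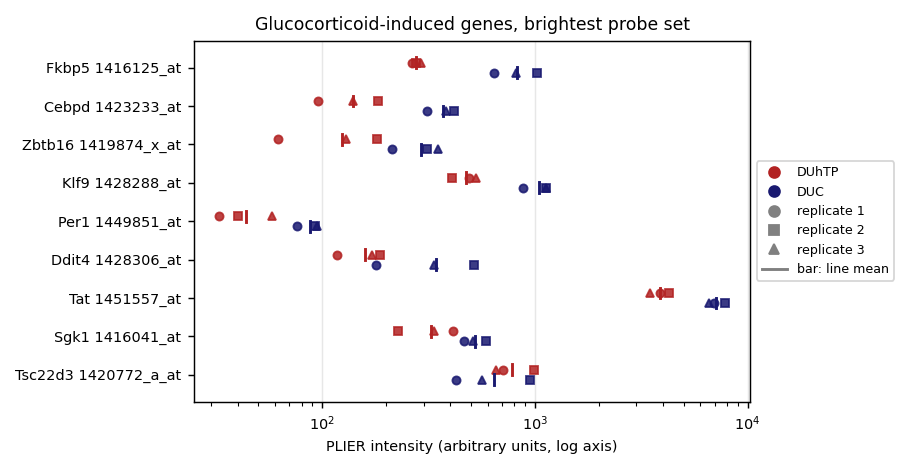
PLIER intensity (arbitrary units, log axis) of the 9 glucocorticoid-induced genes on their brightest probe set, on each of the 6 arrays, with a bar at the line mean. The lines do not overlap for Fkbp5, Cebpd, Zbtb16, Klf9, Per1, Tat and Sgk1, and they overlap for Ddit4 and Tsc22d3.

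**Figure D5:**
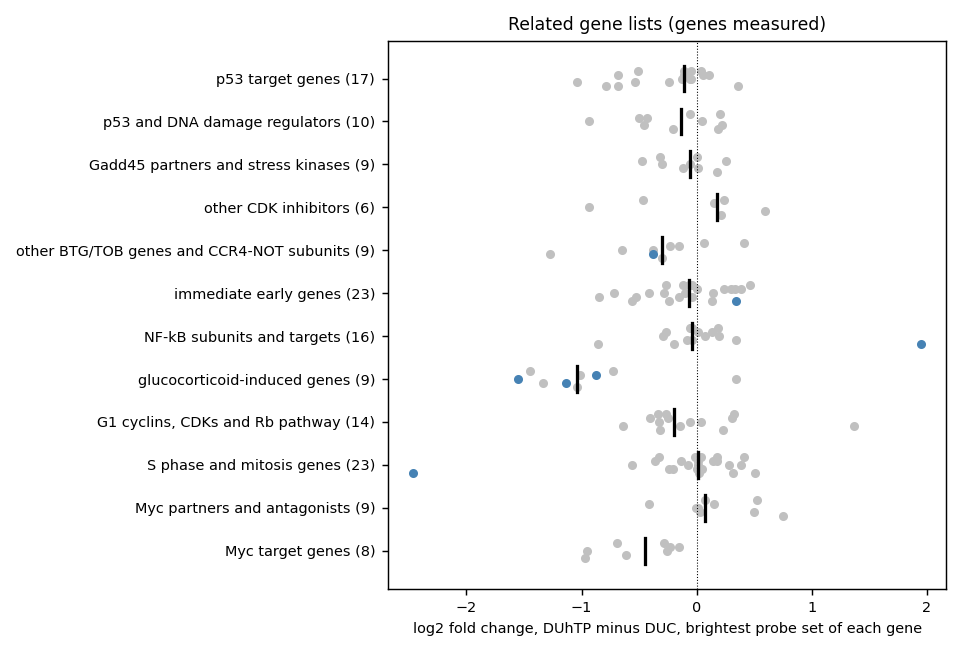
Log2 fold change, DUhTP minus DUC, of the brightest probe set of each gene in the 12 related lists, with a black bar at the list median. Blue marks a gene with at least 1 called probe set; for Cnot6l, Egr2 and Mcm6 that was a dimmer probe set than the one plotted. The medians run from -1.04 for the glucocorticoid-induced genes to 0.18 for the other inhibitors of cyclin-dependent kinases.

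Marker lists of liver cells and of exocrine pancreas, which is not a liver tissue, gave the following calls. They are set against 3.32% of all genes called in either direction, or 11.3% with 16 added. Clec4f, a Kupffer cell lectin, rose (log2 fold change 1.13, limma adjusted p = 0.0320), with C1qa at 0.72 and Cd5l at -0.01. With 16 added 5 of the 12 Kupffer cell and leukocyte markers passed higher, Clec4f, C1qa, C1qb, Cd68 and Adgre1, and Marco passed lower. Without overlap 6 of the 12 were higher and 1 lower, against 13.6% and 15.8% of all probe sets. Col3a1, a fibrillar collagen, rose on 1 of its probe sets (0.93, limma adjusted p = 0.0434), with Dcn at -0.13. Pdgfrb passed higher with 16 added, as did Col3a1. The endothelial genes Clec4g and Stab2 read 0.26 and 0.48, and Stab2 passed higher with 16 added. All 9 exocrine pancreas markers had a negative log2 fold change, with Cela1 at -0.12 and Ctrb1 at -3.05. Of these 9, 7 were lower without overlap, against 15.8% of all probe sets. None was called without the constant, and Clps, Cela3b, Prss2 and Ctrb1 passed lower with 16 added. Of the hepatocyte markers, Hnf4a passed lower with 16 added. DUhTP replicate 2, which had the lowest Gadd45b on 1450971_at, also had the lowest pancreas marker sum. Within DUhTP this array was also lowest for Gadd45b 1449773_s_at and Mdm2 1423605_a_at, but highest for Gadd45g, Cdkn1a 1424638_at, Ier3 and Myc. All of these probe sets were lower in DUhTP. The part of the pancreas markers in the Gadd45b difference was not tested.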

How the data were processed

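Liver RNA of 3 DUhTP and 3 DUC arrays was analysed. Global scaling by the authors in GCOS 1.1.1 was followed by PLIER summarisation in Array Assist, and the deposited values are linear intensities. The PLIER version and any added constant are not given in the sources used here. Of 22690 probe sets, 64 controls were left out, and 20380 of the rest had 1 gene symbol, 691 several and 1555 none in the array annotation. Log2 intensity without a constant was fitted in limma 3.58.1 (R 4.3.3; lmFit and eBayes), with line as the only term and 22626 probe sets adjusted together. The script was tested on simulated data. An exact permutation test of 3 against 3 arrays cannot go below p = 0.1 and was not used. The members and lists were chosen with earlier results of these data known. Named genes were all members, from each list the called genes (up to 4 by p) and up to 2 further genes of highest mean intensity, and the 5 genes most like Gadd45b. Genes that passed only with 16 added, and Sgk1, Cdk4, Tsc22d3, Cnot8, Mcm7 and others given as contrasts, were named after their values were seen. Alternatives were 16 added, quantile normalization, removal of the dimmest 33.3% of probe sets, limma-trend, array weights, a replicate block, each array left out, and for genes the probe set with the smallest p.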

Additional observations from a re-analysis of the deposited data

How the results depend on the processing

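Of 215 comparisons of a member's fold change with its value under another setting, 185 kept direction and side of the threshold, 7 lost and 19 gained a call, and 4 changed sign, none of them called. Gadd45b 1450971_at kept its call in 10 of 12 alternatives, at log2 fold changes of -2.21 to -1.95. Counts of calls are given for member probe sets, those with a fold change over 2, member genes, all probe sets, genes of the 12 pathway lists and glucocorticoid-induced genes. The counts were 2, 2, 1, 546, 7 and 3 in the analysis as reported, 8, 4, 5, 1951, 23 and 6 with 16 added, 7, 5, 5, 1851, 17 and 5 without the dimmest probe sets, and 8, 5, 5, 2350, 26 and 7 with limma-trend. With limma-trend 557 probe sets passed at a fold change over 2. Array weights gave 4 member probe sets, 4 with a fold change over 2, and 3 genes. Gadd45g and Cdkn1a 1424638_at were called in each of these settings. Their limma adjusted p without a constant was 0.0028 and 0.0026 with limma-trend and 0.0124 and 0.0113 without the dimmest probe sets. With array weights it was 0.0401 and 0.0395, and with quantile normalization, where neither was called, 0.0757 and 0.0761. Leaving out each array gave 0 to 2 member probe sets, 0 to 1 genes, 1 to 122 probe sets in all, 0 to 2 pathway genes and 0 to 1 glucocorticoid-induced genes. With 16 added and each array left out, a combination chosen after seeing the data, these were 5 to 6, 3 to 4, 771 to 1591 (1591, 1570, 1530 and 961 without DUhTP replicates 1, 2 and 3 and DUC replicate 1), 9 to 19 and 4 to 6, with 4 to 5 member probe sets at a fold change over 2. The cause of these shifts was not tested.

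With a replicate block 0 probe sets were called, members and lists included, and Gadd45b 1450971_at had an adjusted p of 0.115. Arrays of the same number in both lines had deviations correlated at 0.0034, 0.0048 and 0.067 for replicates 1, 2 and 3. The value for replicate 3 was the highest of any pair, while DUhTP replicate 1 correlated better with DUC replicate 2 (0.028). These values cannot show whether arrays of the same number were handled together.

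Signs turned for Gadd45a without DUhTP replicate 3 (-0.048), DUC replicate 2 (-0.0027) and DUC replicate 3 (-0.065; highest 0.53, without DUC replicate 1), and with 16 added as well (-0.045, -0.025 and -0.048), for Btg1 1437455_a_at without DUhTP replicate 3 (-0.0030, or -0.0025 with 16 added; highest 0.30, without DUhTP replicate 2), and for Btg2 on the probe set with the smallest p (-0.19).

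With 3 arrays a line and p-values that lose calls when 1 array is left out, an uncalled member is not shown to be unchanged. Dim probe sets such as those of Gadd45a, Egr2 and Mcm6 sit low in the range of the array, where a small intensity difference is a large log2 one.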
